A study of Mus musculus with 161 samples.

Results

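The 2 untagged mouse embryonic stem cell (mESC) clones that lack residues 13 to 33 of endogenous CTCF were compared with their untagged parental cells by chromosome-conformation capture carbon copy (5C), in which primers placed on restriction fragments report how often those fragments were ligated. The members are the 5C libraries labeled endogenous CTCF-Delta(13-33), 3 of clone 1 (line EN276.4) and 4 of clone 2 (line EN276.5), which makes 7 of the 91 5C libraries of the series. They were set against the 3 libraries labeled WT parental (line E14Tg2a). All 10 libraries came from untreated cells, without auxin or doxycycline (dox) and without a CTCF transgene or degron tag, and all share the E14Tg2a background, with a single X chromosome. Per the study's methods, the deletion is homozygous and was made with a Cas9 guide and a repair template, and each deletion line is a single clone, so the comparison sets 2 clones against 1 parental line. Replicates are separate libraries of a line. The labels do not say whether they came from separate cultures, so p-values measure the spread between libraries, which may be technical. The library numbers fall into 2 runs of consecutive numbers, with 2 parental, 1 clone 1 and 2 clone 2 libraries in run 1, and 1 parental, 2 clone 1 and 2 clone 2 libraries in run 2. The labels do not say what a run is.

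CTCF is a zinc-finger protein that binds DNA in an oriented manner. Cohesin, a ring-shaped complex that extrudes chromatin loops, is held up at bound CTCF when it meets the N terminus of the protein, which leaves few contacts across such sites and many between them. Rows of CTCF sites therefore mark the boundaries of topologically associating domains (TADs), and the 5C region, around the X inactivation genes Xist and Tsix, is a classic example. The comparison addresses whether a short N-terminal stretch of endogenous CTCF, away from any transgene, bears on this folding.

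The deleted codons lie in the first coding exon of Ctcf, exon 3 of the annotated transcript, on the plus strand of chromosome 8 (mm9). Codons 13 to 33 span chr8:108187699-108187761, 63 bases in all. The genome sequence around them and the guide are shown because they define the mutation. Capitals mark the 21 deleted codons in the first sequence and the protospacer-adjacent motif in the second.
Ctcf codons 13 to 33 with 24 bases on each side: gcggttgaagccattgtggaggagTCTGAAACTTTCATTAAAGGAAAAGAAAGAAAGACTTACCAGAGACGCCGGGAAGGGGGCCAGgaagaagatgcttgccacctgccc
Guide, minus strand, chr8:108187688-108187707, and its motif at chr8:108187685-108187687: agtttcagactcctccacaaTGG
The guide has 1 perfect match on chromosome 8. It covers parts of codons 9 to 15, with the cut expected in codon 10, just before the deleted stretch. The 5C region is on chromosome X, so these libraries hold no reads from Ctcf and cannot show the deletion itself.

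Total counts per library ran from 7400357 to 12449102, and clone 1 replicates 3 and 1 were the shallowest. The runs differed in more than their numbers. The most frequent primer pair took 0.193% to 0.215% of the counts in run 1 and 0.623% to 2.1% in run 2, and the deposited corrected matrices have a different form in each run. Each difference below is therefore the deletion coefficient of a linear model with a term for run. The share of primer pairs with equal counts above 0 was at most 3.17% between any of these libraries. Insulation profiles were alike throughout, with Pearson correlations across 193 bins (bins of 1 region, not independent replicates) of 0.981 to 0.994 between parental and deletion libraries, 0.986 to 0.99 among parental libraries and 0.979 to 0.989 between the clones.

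Insulation was lower at 1 of the 6 TAD boundaries in cells with the deletion, and this was the second along the chromosome, beside Cited1, which encodes a transcriptional co-regulator. The insulation score of a 20-kb bin is minus log2 of the mean corrected contact between the 5 bins before it and the 5 bins after it, over the mean of that quantity across all bins, so a high score stands for few contacts across the bin. At boundary 2 the parental libraries scored 0.90, 0.88 and 0.99. Clone 1 scored 0.76, 0.84 and 0.78, and clone 2 scored 0.79, 0.74, 0.83 and 0.79. All 7 deletion libraries lay below all 3 parental libraries. The means were 0.92 ± 0.058 (SD, n = 3) and 0.79 ± 0.034 (SD, n = 7). With the term for run the difference was -0.15 ± 0.027 (SE, 95% confidence interval -0.21 to -0.090). It corresponds to 1.11-fold more contacts across the boundary relative to the mean of all bins (95% confidence interval 1.06 to 1.15). The fit has no term for clone, so these intervals measure the spread between libraries and not between clones. In the fit across all 193 bins with a score, boundary 2 had the smallest p of all (limma, adjusted p = 0.023) and was the one bin past an adjusted p of 0.05, 0.518% of those tested. Permuting the deletion label within runs gave p = 0.02 (two-sided exact permutation test), which is the smallest p that the 50 arrangements allow, and 0.12 once adjusted over the 6 boundaries, so a single boundary could not pass this test.

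**Figure D1:**
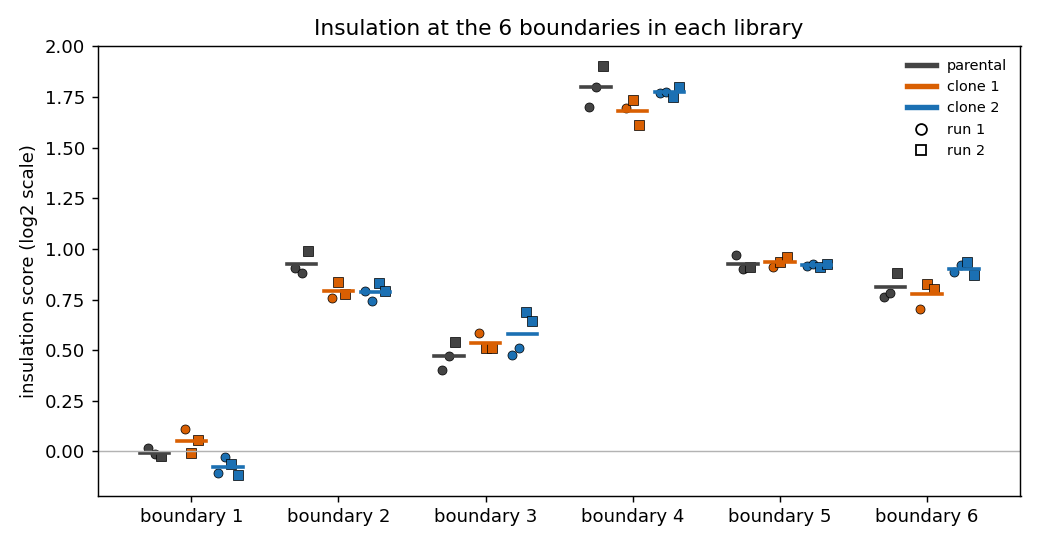
Insulation score (log2 scale) at the 6 boundaries, 1 point per library, circles for run 1 and squares for run 2, with a bar at the mean of each line. At boundary 2 the 3 parental libraries sit between 0.88 and 0.99 and the 7 deletion libraries between 0.74 and 0.84, while the lines overlap or change places at the other boundaries.

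The call at boundary 2 was close to the threshold and was lost in several alternative fits. The adjusted p across all bins was 0.67 on raw counts, 0.17 with no term for run and 0.41 in clone 1 alone (limma). It was 0.018 in clone 2 alone and 0.023 with the iterative correction repeated on the raw counts (limma). The direction and size held in both runs (-0.13 in run 1 and -0.18 in run 2), in clone 1 alone (-0.16) and in clone 2 alone (-0.15). The adjusted p of the fit across all bins rose to 0.122 without parental replicate 1, 0.057 without parental replicate 2, 0.72 without parental replicate 4, 0.067 without clone 1 replicate 1 and 0.097 without clone 2 replicate 2 (limma), with differences of -0.15, -0.16, -0.13, -0.15 and -0.15.

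The contacts behind this score can be read directly. Scaled to 1000000 per library, the mean contact across boundary 2, over 25 bin pairs, was 8.47 and 8.55 in the parental libraries of run 1, against 9.29 in clone 1 and 9.11 and 9.22 in clone 2. In run 2 it was 7.36 in the parental library, against 8.11 and 8.32 in clone 1 and 8.05 and 8.44 in clone 2. Within each run every deletion library was above every parental library, and the parental libraries differed between runs as well. Of the 25 bin pairs, 18 had a positive deletion coefficient in log2 of observed over expected contact, with the term for run. Over all bin pairs the median of this coefficient was 0.014. Plain means of corrected contact did not always share its sign. A pair 60 kb apart had 14.2 in parental and 13.5 in deletion libraries, with a coefficient of 0.13. Of the 25 bin pairs, 0 had every deletion library above every parental library, which was the case in 0.644% of all bin pairs. None was past an adjusted p of 0.05 on its own (limma). The smallest p belonged to the bins on either side of the boundary, 40 kb apart, with mean contacts of 23.8 in parental and 30.4 in deletion libraries (limma, p = 0.0857, adjusted p = 0.999). In the bin just before the boundary the difference in insulation was 0.019 ± 0.046 (SE; limma, adjusted p = 0.90). In the bin after it, which holds Cited1, the difference was -0.12 ± 0.063 (SE; limma, adjusted p = 0.66).

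**Figure D2:**
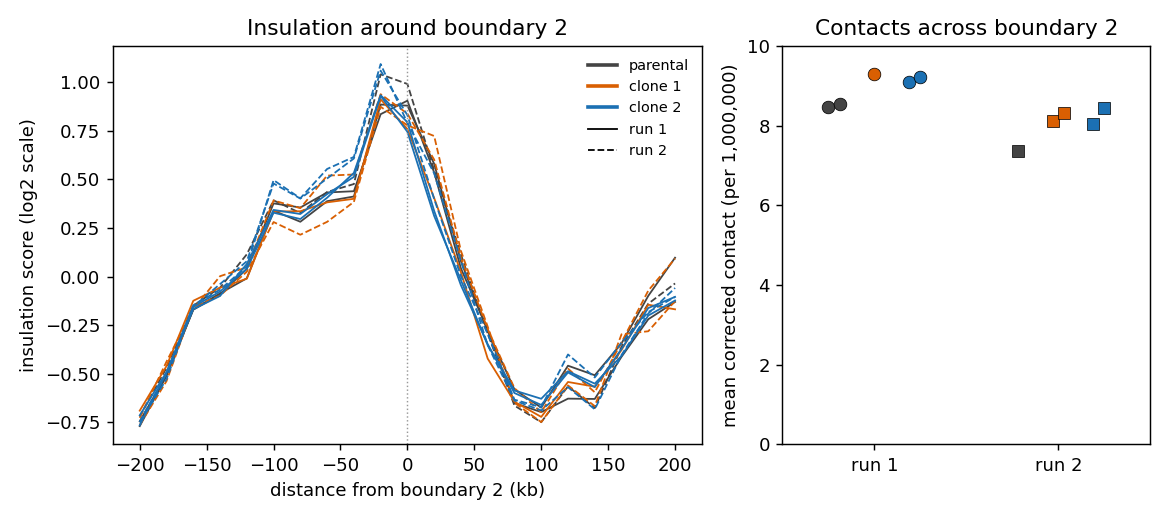
Left, insulation score (log2 scale) within 200 kb of boundary 2, 1 line per library, solid for run 1 and dashed for run 2. Right, mean corrected contact across boundary 2 (per 1000000) by run, where the parental points (7.36 to 8.55) lie below the deletion points of their own run (8.05 to 9.29 over both runs).

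The bin of boundary 2, chrX:99411148-99431147 (mm9), holds no annotated gene, and the 3' end of the minus-strand gene Cited1 lies 11.6 kb after it. It holds 3 peaks of FLAG-tagged full-length CTCF, as do the bins of boundaries 4 and 6, while boundaries 1 and 3 hold 1 peak each and boundary 5 holds none. These peaks were called in the transgene line and say nothing of binding in the clones. A core of the CTCF consensus, CC, any 3 bases, AG, any 2 bases and GGC, searched on both strands, was found in 2 of the 3. It was present in 39 of 78 peaks of the region (50.0%) and in 2.29% of its 200-base windows. Both peaks with a match are given on the plus strand of the mm9 genome, since they lie in the bin of boundary 2, with the match in capitals.
Boundary 2, chrX:99414572-99414771: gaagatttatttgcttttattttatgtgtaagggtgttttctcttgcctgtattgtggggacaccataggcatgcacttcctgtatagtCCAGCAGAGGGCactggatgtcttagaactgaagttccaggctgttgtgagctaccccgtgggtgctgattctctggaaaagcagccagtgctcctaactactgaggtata
Boundary 2, chrX:99415083-99415282: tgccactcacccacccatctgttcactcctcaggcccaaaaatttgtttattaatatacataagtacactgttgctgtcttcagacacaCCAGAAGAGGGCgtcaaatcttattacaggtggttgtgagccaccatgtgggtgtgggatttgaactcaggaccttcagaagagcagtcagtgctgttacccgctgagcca
Both matches read in the plus direction. The same direction was seen for every match in the peaks of boundaries 1, 3, 4 and 6, so the direction does not set boundary 2 apart.

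At the other 5 boundaries the deletion and parental libraries overlapped, and no test passed its threshold. At boundary 1, inside Nhsl2, the difference was -0.0098 ± 0.047 (SE, 95% confidence interval -0.11 to 0.092). Boundary 3, inside the gene 4930519F16Rik, differed by 0.071 ± 0.044 (-0.025 to 0.17). At boundary 4, which holds the 5' ends of Xist and of Enox (also called Jpx, a noncoding activator of Xist), the difference was -0.073 ± 0.048 (-0.18 to 0.031), made up of -0.0028 in run 1 and -0.18 in run 2. Boundary 5, close to Rlim, which encodes a ubiquitin ligase that promotes X inactivation, differed by -0.0016 ± 0.026 (-0.058 to 0.054), with -0.017 in run 1 and 0.022 in run 2. At boundary 6, in Cox7b (a subunit of cytochrome c oxidase) and Atp7a (a copper transporter), the difference was 0.028 ± 0.047 (-0.073 to 0.13), with 0.062 in run 1 and -0.023 in run 2. Adjusted p ranged from 0.72 to 0.98 in the fit across all bins (limma) and from 0.44 to 0.94 by exact permutation over the 6 boundaries. The interval was narrowest at boundary 5, where it leaves out changes larger than 0.058 in either direction.

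Averaged over the 6 boundaries, insulation was 0.793, 0.804 and 0.867 in the parental libraries, 0.794, 0.806 and 0.786 in clone 1, and 0.789, 0.808, 0.842 and 0.819 in clone 2. The 7 deletion libraries fell between the lowest and the highest parental values except for 2, which lay just under the lowest. The difference was -0.022 ± 0.015 (SE, two-sided exact permutation test within runs, p = 0.18, n = 3 and 7 libraries). It was -0.0011 in run 1 and -0.054 in run 2, where the single parental library had the highest mean of all 10.

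Along the whole region, differences in insulation were small. Of 230 bins of 20 kb, 193 had a score, and the quartiles of the differences were -0.032 and 0.026, with extremes of -0.17 and 0.087. Scores were lower in the deletion cells in 101 of the 193 bins. At an unadjusted p under 0.05 there were 12 bins (6.22% of those tested), all of them lower (limma). The deletion libraries were all below the parental libraries in 7 bins (3.63%), boundary 2 among them, and the groups did not overlap in either direction in 9 bins (4.66%). After boundary 2, the smallest p was found in the bin with the 3' end of Xist, inside Tsix, 1 bin before boundary 4, with a difference of -0.17 ± 0.046 (SE; limma, adjusted p = 0.27). Xist is the noncoding RNA that silences the X chromosome, and Tsix is its antisense repressor. The scores of this bin were 2.23, 2.28 and 2.37 in parental libraries, 2.14, 2.19 and 1.98 in clone 1, and 2.09, 2.11, 2.20 and 2.19 in clone 2. No deletion library reached the parental values. The next bins by p were one with the small RNA gene U6 and Gm9673 (-0.077 ± 0.025), one with B230206F22Rik (also called Ftx) and Zcchc13 (-0.14 ± 0.046), one in Nhsl2 (-0.11 ± 0.042) and one in Tsix (-0.093 ± 0.036), with adjusted p of 0.55 to 0.60 (limma). Of these 4 bins, the one in Tsix and the one with Gm9673 showed no overlap between deletion and parental libraries.

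**Figure D3:**
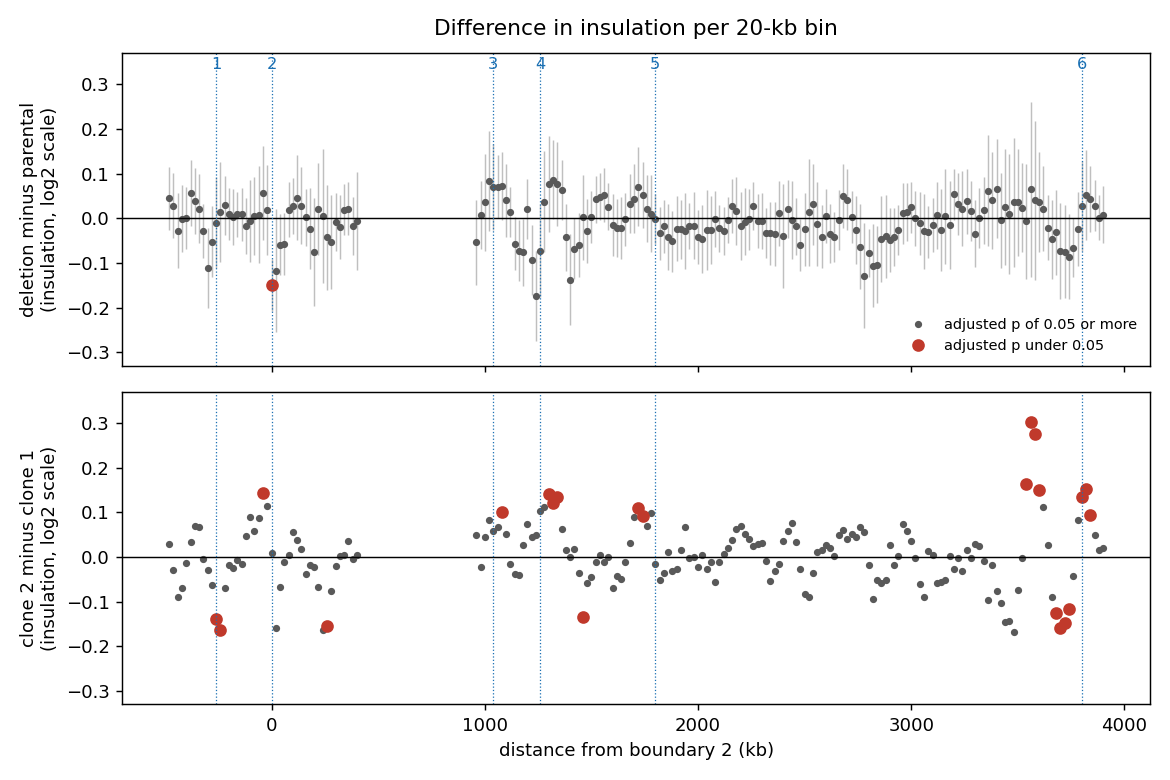
Difference in insulation (log2 scale) per 20-kb bin against distance from boundary 2 (kb), deletion minus parental with 95% confidence intervals above and clone 2 minus clone 1 below. Dotted lines mark boundaries 1 to 6 and red points an adjusted p under 0.05, which is reached by boundary 2 alone above and by 22 bins below.

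Contacts between single pairs of bins showed no call. Of 20806 bin pairs at 40 kb or more, each as log2 of observed over expected contact with 0.5 added to both, 0 were past an adjusted p of 0.05 (0%, limma) and 902 were at an unadjusted p under 0.05 (4.34%), 453 higher and 449 lower. On the raw counts edgeR called 0 of 20021 and DESeq2 called 13 of 20816, of which 5 were higher and 8 lower. Lower calls included fitted log2 changes from -20.15 to -20.79, which are too large to be read as measured decreases. The median SE of a bin pair was 0.25, and in simulated data of the same size a change of 2 on the log2 scale was recovered in 69.5% of bin pairs. The quartiles of the differences were -0.15 and 0.19.

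The 4 bin pairs described here, all among the 5 with the smallest p, had low corrected contacts, of 3.04 or less in every library. A pair of bins without annotated genes, 740 kb apart, had 0.726, 0.786 and 0.774 in parental and 1.57 to 3.04 in deletion libraries, a difference of 1.10 ± 0.20 (SE, log2 observed over expected; limma, adjusted p = 0.999). The other 3 pairs were lower in the deletion libraries. A pair 2880 kb apart with Gm16469 and Zdhhc15 differed by -1.42 ± 0.20, one 2800 kb apart with Cited1 and 5530601H04Rik by -1.27 ± 0.19, and one 1480 kb apart with B230206F22Rik and 5530601H04Rik by -0.94 ± 0.18, with adjusted p of 0.69, 0.77 and 0.999 (limma). In the first and second of these, parental contacts were between 0.507 and 1.57, and 5 and 6 of the 7 deletion libraries were at 0. The size of such differences depends on the value added before taking logs. With 0.05 in place of 0.5 they were -3.68, -3.56 and -1.85 in these 3 pairs, and DESeq2 on raw counts gave -3.54, -3.76 and -1.96. The pair without annotated genes had 1.47 with 0.05 added and 0.49 by DESeq2.

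The 6 boundaries cut the region into 7 segments, and contacts within segments differed little from those of parental cells. As log2 of the summed observed over the summed expected contacts, the differences within the 7 segments ran from -0.015 in segment 2, between Nhsl2 and Cited1, to 0.011 in segment 3, which holds Hdac8, a histone deacetylase gene, with p from 0.14 to 0.84 (two-sided exact permutation tests). On raw counts segments 2 and 6 were both at -0.020 (exact permutation p = 0.02 each), against -0.015 and -0.0040 on corrected contacts. Of the 21 blocks between segments and the 7 within, 2 had p under 0.05 (7.14% of 28), both higher in the deletion cells, and neither passed adjustment. The first joins segments 2 and 3, which meet at boundary 2. This block holds every bin pair behind the score of boundary 2, so it is not a separate result. Its values were -0.43, -0.38 and -0.44 in parental libraries, -0.31, -0.37 and -0.33 in clone 1, and -0.36, -0.35, -0.43 and -0.37 in clone 2. All but clone 2 replicate 3 lay above the parental values, with a difference of 0.065 ± 0.022 (SE, exact permutation p = 0.02, adjusted p = 0.56), which is 4.6% more contacts over 360 bin pairs. The second joins segments 3 and 7, on either side of 4 boundaries, with a difference of 0.17 ± 0.067 (SE, exact permutation p = 0.04, adjusted p = 0.56) over 300 bin pairs. There the parental libraries were at -0.14, -0.014 and -0.19, clone 1 at 0.037, 0.13 and 0.090, and clone 2 at 0.16, -0.013, -0.053 and -0.093. Clone 1 was above all parental libraries, while clone 2 overlapped them. Both blocks lost an exact p under 0.05 on raw counts (0.035 and 0.056, p = 0.24 and 0.12). The first also lost it without clone 1 replicate 1 or 3 or clone 2 replicate 1, 2 or 4, and the second without clone 1 replicate 3 or 4 (exact p from 0.05 to 0.10). With any single parental library left out, the arrangements allow no exact p under 0.05, so the test could not decide there. The second fell to 0.023 with medians over bin pairs (exact p = 0.70). With limma across the 28 blocks 3 had an unadjusted p under 0.05, these and segments 4 with 5, which meet at boundary 4 (0.092 ± 0.040, limma, p = 0.048), and none passed adjustment (limma, adjusted p of 0.32, 0.32 and 0.45).

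Contacts by distance did not separate the groups. Mean corrected contacts from 100 to 200 kb were 13.0, 12.8 and 11.9 in parental libraries, 12.8, 11.7 and 11.6 in clone 1, and 12.8, 12.5, 11.5 and 11.8 in clone 2, and the lower values in each line belong to run 2. On the log2 scale the deletion coefficient was -0.024 ± 0.012 (SE, exact permutation p = 0.08, adjusted p = 0.36) at this distance and -0.022 ± 0.011 (p = 0.12, adjusted p = 0.36) from 200 to 500 kb. It was -0.0045 ± 0.0072 from 40 to 100 kb, 0.0025 ± 0.018 from 500 to 1000 kb, 0.0038 ± 0.017 from 1000 to 2000 kb and 0.0011 ± 0.049 over 2000 kb, each with an adjusted p of 1 over the 6 classes (exact permutation tests). In these 4 classes the runs differed in sign, with -0.011, -0.015, -0.017 and -0.045 in run 1 and 0.0052, 0.028, 0.036 and 0.071 in run 2. The SE was largest over 2000 kb, where mean contacts were 0.427 to 0.55 and the parental libraries alone ranged from 0.436 to 0.499.

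Contacts between bins that hold CTCF peaks, the usual anchors of loops, were likewise close. Over 344 bin pairs from 100 to 1000 kb among 54 such bins, log2 of observed over expected was 0.42, 0.38 and 0.41 in parental libraries, 0.39, 0.39 and 0.46 in clone 1, and 0.37, 0.35, 0.38 and 0.37 in clone 2. The highest value belonged to clone 1 replicate 4 and the lowest to clone 2 replicate 2. The difference was -0.020 ± 0.023 (SE, two-sided exact permutation p = 0.40), or 1.35% fewer contacts as fitted, with a sign shared by both runs (-0.028 and -0.0074). It was -0.0066 without parental replicate 1 and -0.0027 on raw counts.

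**Figure D4:**
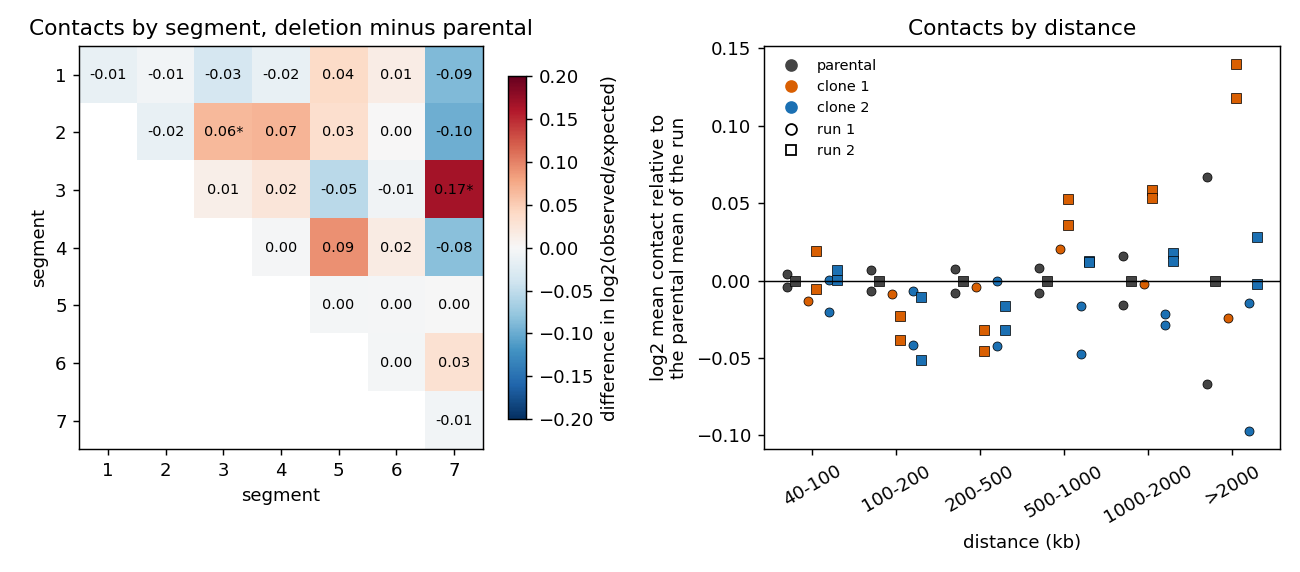
Left, difference between deletion and parental cells in log2 of observed over expected contacts for each pair of the 7 segments, with an asterisk at an unadjusted exact p under 0.05, which is seen for segments 2 with 3 (0.065) and 3 with 7 (0.17). Right, log2 mean contact by distance class (kb) in each library relative to the parental mean of its run, circles for run 1 and squares for run 2, where parental and deletion points overlap in most classes and spread most over 2000 kb.

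The clones also differed from each other along the region. Windows of neighboring bins overlap, so calls in adjacent bins are not separate measurements. Between clone 2 and clone 1, 22 of 193 bins (11.4%) were past an adjusted p of 0.05, 14 higher and 8 lower in clone 2 (limma, fitted with all 10 libraries). The median absolute difference per bin was 0.043 between the clones and 0.028 between deletion and parental libraries. At boundary 2 the difference between the clones was 0.0078 ± 0.028 (SE; limma, adjusted p = 0.89). Clone 2 was lower at boundary 1 (-0.14 ± 0.031, adjusted p = 0.017) and higher at boundary 6 (0.13 ± 0.032, adjusted p = 0.018), where parental cells lay between the clones. The largest difference was found 240 kb before boundary 6, in a bin without an annotated gene next to Atrx, which encodes a chromatin remodeler. Clone 1 scored 0.39, 0.49 and 0.43 there and clone 2 scored 0.65, 0.76, 0.75 and 0.73, a difference of 0.30 ± 0.045 (SE; limma, adjusted p = 0.0025). The parental libraries scored 0.48, 0.40 and 0.68 and overlapped both. Neighboring bins in Atrx (0.27 ± 0.040 and 0.15 ± 0.036) and Fgf16 (0.16 ± 0.044) were also higher in clone 2, whereas bins 80 to 100 kb before boundary 6, at and beyond the other end of Atrx, were lower (-0.16 ± 0.027 and -0.15 ± 0.028). Further bins past the threshold among the 10 with the largest differences lay in Nhsl2 (-0.16 ± 0.029), Hdac8 (-0.16 ± 0.038), Atp7a (0.15 ± 0.025) and Rps4x, a ribosomal protein gene (0.14 ± 0.033). No bin pair differed between the clones past an adjusted p of 0.05 (0% of 20806), and 6.45% did at an unadjusted p under 0.05 (limma). For single values such as the mean over boundaries (0.023 ± 0.012, exact permutation p = 0.167), the 18 arrangements within runs cannot give a p below 0.0556.

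Insulation at boundary 2 was not lower when the same deletion was present in CTCF-AID, Tir1 cells, in which endogenous CTCF carries an auxin-inducible degron and which were also untreated. There, boundary 2 scored 0.67 to 0.82 in 4 parental libraries and 0.71 to 0.90 in 8 deletion libraries of 2 other clones. The difference was 0.035 ± 0.025 (SE, exact permutation p = 0.204). The deletion effect at boundary 2 differed between the backgrounds by 0.18 ± 0.040 (SE; limma interaction term, adjusted p = 0.027, 1 of 193 bins past the threshold, 0.518%). Permuting the deletion labels within run and background gave p = 0.00187 (two-sided exact permutation, adjusted p = 0.0131 over the 6 boundaries and their mean). The parental cells themselves lay apart, at 0.92 ± 0.058 (SD, n = 3) without and 0.73 ± 0.066 (SD, n = 4) with the tag, and the deletion libraries were close, at 0.79 ± 0.034 (n = 7) and 0.77 ± 0.061 (n = 8). Run 1 of the CTCF-AID libraries also mixes both forms of the corrected matrix. Each background has 1 parental line, so the parts of the tag, the line and the deletion in this difference cannot be told apart. At the other boundaries and for their mean, the effects differed by between -0.036 and 0.029 (adjusted p from 0.78 to 0.89, exact permutation). In CTCF-AID cells 1 bin, with the predicted genes Gm14875 and Gm3943, was past the threshold for the deletion (-0.16, limma, adjusted p = 0.028, 0.518% of 193 bins). Its difference was 0.0022 in untagged cells, and the 2 effects did not differ past the threshold (limma, adjusted p = 0.60). The untagged clones lay on either side of the parental mean of 0.19 there, at 0.22 in clone 1 and 0.11 in clone 2. They differed by -0.13 (clone 2 minus clone 1, limma, adjusted p = 0.0076).

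Cells in which CTCF was degraded give values on the same scale. Degrading tagged CTCF for 4 days left a score at boundary 2 of 0.44 and 0.49 in 2 libraries, while 14 libraries of the same line with a full-length transgene induced by dox scored 0.55 to 0.85. The means differed by -0.19 at boundary 2 and by -0.23 over the 6 boundaries. The paper reports that this transgene was expressed well below endogenous tagged CTCF, which was itself below untagged CTCF. With the transgene the mean at boundary 2 was 0.66, against 0.92 in untagged parental cells. The differences are therefore against reduced CTCF and do not measure the loss of CTCF at untagged levels. These cells were treated and carry a transgene, so the values stand beside those of the untagged cells without a test.

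**Figure D5:**
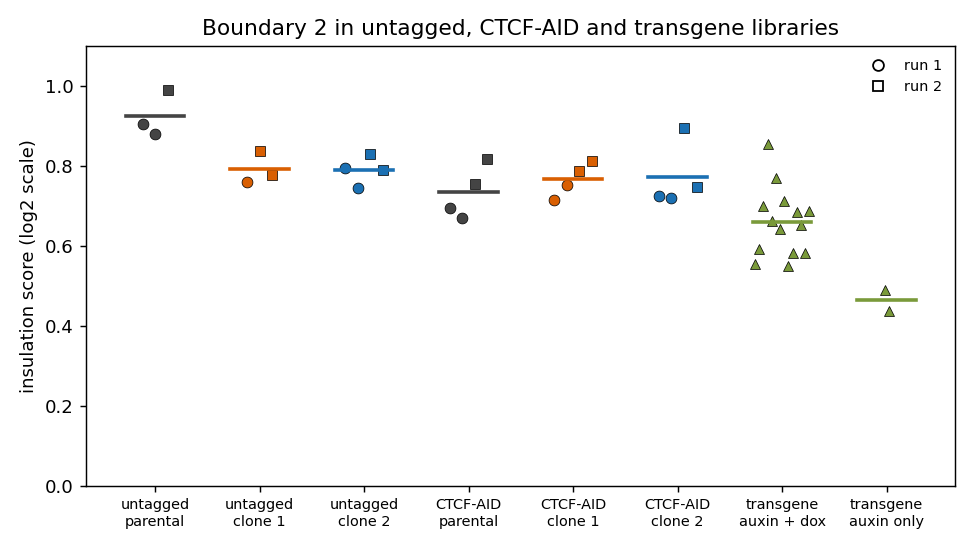
Insulation score (log2 scale) at boundary 2, 1 point per library, in untagged and CTCF-AID cells with and without the deletion (circles for run 1, squares for run 2) and in the transgene line (triangles), with a bar at each mean. The untagged parental libraries (0.88 to 0.99) lie above the untagged deletion libraries (0.74 to 0.84), while CTCF-AID parental and deletion libraries overlap.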

How the data were processed

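The 5C data were 5C primer-pair counts and corrected contacts on mm9. The deposited counts, made by the authors, are ligation products per combination of 1 forward with 1 reverse primer. The deposited corrected matrices, in which the authors balanced rows and columns by iterative correction with cooltools, hold a signal per primer pair. The submitters' processing notes name Bowtie2, SAMtools, mm9 and mm10, with no version or role used here. The deposited peak file gives coordinates of FLAG-CTCF peaks. In untagged cells the corrected matrices of run 1 are forward by reverse on the scale of the counts and those of run 2 are symmetric and sum to 1000000, so run and form cannot be told apart.

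Corrected values of 455 forward and 467 reverse primers kept in every library were scaled to 1000000 and averaged in 230 bins of 20 kb. Insulation used a 100-kb window and at least 50% of the bin pairs in it, contacts used bins 40 kb or more apart, and 0.5 was added to observed and expected values. Single values were tested by permuting the deletion label within runs (50 arrangements, two-sided, exact). Bins and bin pairs were tested with limma 3.58.1 (run and deletion as terms) in R 4.3.3, with Benjamini-Hochberg adjustment and a threshold of 0.05. edgeR 4.0.16 (quasi-likelihood) and DESeq2 1.42.0 were run on the raw counts summed per bin pair as alternatives, and limma was also run across the domain blocks. Other steps used Python 3.11.15, NumPy 2.4.6, pandas 2.3.3, SciPy 1.17.1 and matplotlib 3.10.9.

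The code was tested on simulated data, where 20 of 20 bins changed by 0.3 and 69.5% of bin pairs changed by 2 on the log2 scale were recovered. False calls numbered 1 for bins and 6 for bin pairs. A change of 0.3 is larger than any deletion minus parental difference between bins here (-0.17 to 0.087), so recovery of smaller changes was not tested. Text names the 6 boundaries, the 5 bins with the smallest p, 4 of the 5 bin pairs with the smallest p, and the 10 bins with the largest difference between clones past the threshold. The remaining bin pair is not reported here. The members and lists were chosen with earlier results of these data known. Depth was 7400357 to 12449102 counts, and PCR products without molecular identifiers are not independent molecules.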

Additional observations from a re-analysis of the deposited data

Results flagged for a closer look

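Among 84 groups of libraries examined for a single value that stands apart, 2 held one, and chance alone gives such a value in about 1 of 20 groups. Contacts between segments 3 and 6 were at 0.1082 (log2 observed over expected) in clone 1 replicate 1, against 0.1776 to 0.2131 in the other 6 deletion libraries. Contacts between CTCF peak bins were at 0.4598 in clone 1 replicate 4, against 0.3507 to 0.395 in the others.

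The effect of the deletion on insulation at boundary 2 differed between CTCF-AID and untagged cells by 0.1834.

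Insulation differed between clone 2 and clone 1 at several sites, some of them adjacent bins with overlapping windows. Clone 2 was lower by -0.1382 at boundary 1 and higher by 0.1349 at boundary 6. It was higher by 0.3023 in the bin without an annotated gene before Atrx, by 0.2749 and 0.1506 in 2 bins of Atrx, by 0.1638 in the bin of Fgf16, by 0.1513 in the bin of Atp7a after boundary 6 and by 0.1422 in the bin of Rps4x. The differences were -0.1643 in the bin of Nhsl2 after boundary 1, -0.1593 in the bin at the 5' end of Atrx, -0.1491 in the next bin and -0.1558 in Hdac8. Each of these was tested with the clones as separate terms across all 193 bins (limma).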

How the results depend on the processing

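The lower insulation at boundary 2 kept its sign in each alternative tried. With a replicate block (-0.16), in clone 1 alone (-0.16) and in clone 2 alone (-0.15) the exact permutation p was 0.0556, 0.111 and 0.0556. Without parental replicate 1, 2 or 4 it was 0.05, 0.05 and 0.10. Each of these is the smallest p that the remaining arrangements allow, so an exact p under 0.05 could not be reached there. Without single replicates the difference ranged from -0.161 to -0.126. The number of bins past the threshold was 1, against 0 with medians over primer pairs, raw counts, no term for run, the replicate block, clone 1 alone, run 1 alone or run 2 alone (single runs were added after seeing the data), 16 in clone 2 alone and 0 to 2 without single replicates. With a 200-kb window the 1 bin called was in 5530601H04Rik (-0.12, limma, adjusted p = 0.043), and boundary 2 had an adjusted p of 0.089. The bin of Xist joined boundary 2 without clone 1 replicate 4 (-0.15, limma, adjusted p = 0.013). Same-numbered libraries of the same run deviated from their group means with correlations of -0.0607 to 0.444, not all over 0.1, so numbers were not taken as pairs.

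The mean over boundaries was -0.028 with a 200-kb window and -0.031 on raw counts, both past the threshold (exact p = 0.02 and 0.04), 0.00041 with a within-over-across score, and -0.031 to -0.0011 without single replicates. Boundary 1 turned to 0.00063 (200-kb window), 0.021 (within over across) and 0.078 (clone 1 alone). Boundary 5 turned to 0.0047 (medians), 0.0017 (libraries thinned to 7400357 counts), 0.016 (within over across) and 0.0066 (clone 1 alone). Boundary 6 turned to -0.00098 (200-kb window) and -0.069 (clone 1 alone). Without single replicates the ranges were -0.043 to 0.018 at boundary 1, -0.017 to 0.020 at boundary 5, 0.00069 to 0.062 at boundary 6 and -0.118 to -0.0028 at boundary 4. The cause of these shifts was not tested.

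Within segments, raw counts gave -0.020 in segments 2 and 6 (exact p = 0.02 each), 0.0098 (segment 1), 0.015 (segment 4) and 0.0095 (segment 5), medians gave 0.045 (segment 4), 0.018 (segment 5), 0.016 (segment 6) and 0.070 (segment 7, exact p = 0.02), and the replicate block gave 0.0049 (segment 4). Without single replicates segment 4 ranged from -0.016 to 0.0081, segment 5 from -0.010 to 0.00086 and segment 7 from -0.020 to 0.0095. Domain blocks with p under 0.05 numbered 2, against 4 on raw counts (neither of those 2 among them), 3 by limma, 1 with no term for run, 0 with the replicate block and 0 to 2 without single replicates. With the replicate block or without a parental library, the arrangements allow no exact p under 0.05. By distance, 500 to 1000 kb turned to -0.0012 with no term for run, and 1000 to 2000 kb and over 2000 kb to -0.00097 and -0.0056 with the replicate block. Without single replicates these classes ranged from -0.015 to 0.014, -0.017 to 0.018 and -0.045 to 0.047, and 100 to 200 kb from -0.028 to -0.018 (exact p = 0.025 without clone 2 replicate 4). Contacts between peak bins ranged from -0.028 to -0.0066 without single replicates and were -0.0027 on raw counts. Bin pairs past the threshold numbered 0, against 1 with a pseudocount of 0.05 (a bin of 4930519F16Rik with one of Gm14823), 13 by DESeq2 and 0 to 2 without single replicates (2 without parental replicate 1, 1 without replicate 2 and 1 without replicate 4).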

Other observations

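Each clone was also set against parental cells by itself. In clone 2 alone 16 of 193 bins were past the threshold, 7 higher and 9 lower, and in clone 1 alone none was (limma, 11 at an unadjusted p under 0.05). Besides boundary 2 and the bin of Xist (-0.16), clone 2 was lower in the bin of Cited1 (-0.17) and in that of Magt1, a magnesium transporter gene (-0.13), and higher in the bin of Rlim (0.090) and in one that holds B230206F22Rik with the microRNA genes Mir421 and Mir374 (0.13). Of these 16 bins, 10 were also past the threshold between the clones, a comparison that uses the same clone 2 libraries and is not separate. In contacts between CTCF peak bins the clones differed by -0.044 ± 0.020 (SE, clone 2 minus clone 1, exact permutation p = 0.0556, the smallest that 18 arrangements allow).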
